A study of Sparus aurata with 9 samples.

Results

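White skeletal muscle of gilthead seabream (Sparus aurata) kept at minimal flow was described from its own fragment counts, with no comparison against exercised fish. These were the 3 control fish of the 9 fish in the series, chosen by their titles as the minimal flow samples. The other fish swam against flows of 1 or 2 body lengths per second and were not used here. The 3 controls came from a commercial farm, were held for 8 months in 1 tank at minimal flow, were fed by hand and were picked as similar sized fish with normal morphology. They were free to move, and the study describes spontaneous swimming in all directions in their tank. Because all 3 shared a tank, values describe fish of that tank, and because each fish gave 1 library, a difference between fish cannot be told apart from a difference between dissections or library preparations.

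White muscle makes up most of the trunk of a bony fish and powers bursts such as escape and strikes at prey. Its fast fibres store glycogen, split it through glycolysis to lactate, buffer ATP with phosphocreatine, and relax quickly with the help of parvalbumin, a soluble protein that binds calcium. Red muscle, a thin wedge under the skin, does the slow sustained swimming on oxygen and is known for myoglobin, slow myosin and dense mitochondria.

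The table listed 61849 gene models, of which 11523 had a fragment in at least 1 of the 3 fish and 6780 in all 3 fish. Fish 1 held 4820369 counted fragments, fish 2 held 3969381 and fish 3 held 5267310, so that 1 fragment was worth 0.19 to 0.252 CPM (the count divided by the total count of the fish, times 1000000). At 1 CPM or more in all 3 fish stood 4251 gene models. Levels are given as CPM or as shares of counted fragments, both of which grow with transcript length, since no lengths were used here. They say how the counted fragments were divided and not how many molecules each gene made. By the study's methods only the smaller part of the reads of each library could be mapped. Reads that were not mapped are in no count or share given here.

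The counts sat almost entirely on gene models that were alone under their identifier stem. Identifiers hold 3 numbers, and the part up to the last number is called the stem here. No label says what the numbers stand for, and models described as isoforms of 1 gene can differ in stem. Syntaxin-binding 2 isoforms X1 (Sa_7296.10.1) and X2 (Sa_7296.9.1) did. A model alone in its stem is thus not always the only listed transcript of its gene. Alone in their stem were 18463 gene models. These held 97.2% of the counts, and 50.5% of them had a fragment. The other 43386 gene models shared 11990 stems, with descriptions that matched within 96.9% of those stems, and only 5.07% of them had a fragment. Stems with 2 models, 3 to 5 models and 6 or more models had fragments on 7.68%, 5.27% and 2.9% of their models. Together the shared stems held 2.77% of the counts, and only 0.357% once a single gene model described as a microtubule affinity-regulating kinase was set aside. In fish 1, 2 and 3 the shared stems held 2.81%, 2.77% and 2.72%.

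**Figure D1:**
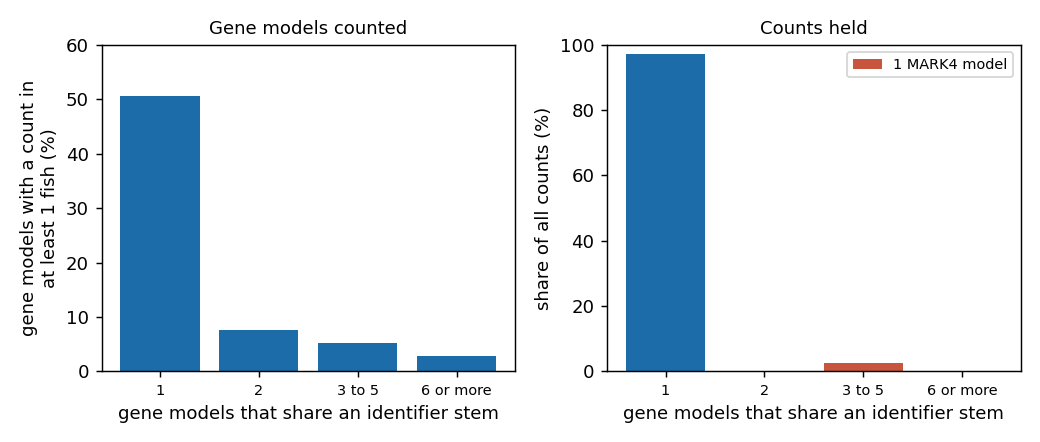
Gene models grouped by how many models share an identifier stem (horizontal axis in both panels). The left panel gives the percentage of models with a count in at least 1 of the 3 fish, falling from 50.5% for models alone in their stem to 2.9% where 6 or more share it, and the right panel gives the percentage of all counts (mean of 3 fish), 97.2% of it in models alone in their stem, with the 1 MARK4 model in a second colour.

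Genes that fast muscle is known to need were among those with few fragments. Troponin, the calcium switch of the thin filament, had 52 gene models that summed to 119, 28.5 and 79.7 CPM in fish 1, 2 and 3, and tropomyosin, its partner on actin, had 31 that summed to 8.3, 14.4 and 10.4 CPM. The calcium pump of fast muscle, SERCA1, was at 0.286 ± 0.116 CPM (SD, n = 3 fish as in all values below), nebulin, the ruler of the thin filament, at 5.3 ± 2.66 CPM, and elongation factor 1-alpha, which brings transfer RNA to the ribosome, at 47.7 ± 8.13 CPM. Of the 9 nebulin models 0 were alone in their stem, and of the 52 troponin models 13 were. Of the 3 SERCA1 models 1 was alone, and of the 31 tropomyosin models 5 were. The only counted SERCA1 model was alone in its stem, as were 4 of the 6 counted tropomyosin models and 7 of the 16 counted troponin models. What the models in shared stems would have held cannot be told from the counted ones. Fast muscle is known to need these proteins, and their low or 0 values are not read here as low expression. How reads that touch several transcripts were treated in counting is not given in the sources used here, and its part in this pattern was not tested.

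Among the fragments that were counted, a few enzymes and filament proteins took most. Glyceraldehyde-3-phosphate dehydrogenase Sa_31172.5.1, the glycolytic enzyme that makes NADH, took 15.9%, 17.3% and 17.6% of the fragments of fish 1, 2 and 3. A model described only as alpha cardiac (Sa_24785.4.1) and placed here with the actins of the thin filament, although its description lacks the word actin, took 18.9%, 14.7% and 14.8%. It led in fish 1 and came after the dehydrogenase in the other 2 fish. The 10 most abundant models of each fish took 60.1%, 59.9% and 58.4% (mean 59.4% ± 0.939), and 6 to 7 models held 50% of the fragments of a fish. By the mean over fish 80 models held 90%, with 71, 93 and 78 models in fish 1, 2 and 3. The order was stable, in that 28 of the 30 models with the highest mean CPM were in the top 30 of every fish.

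**Figure D2:**
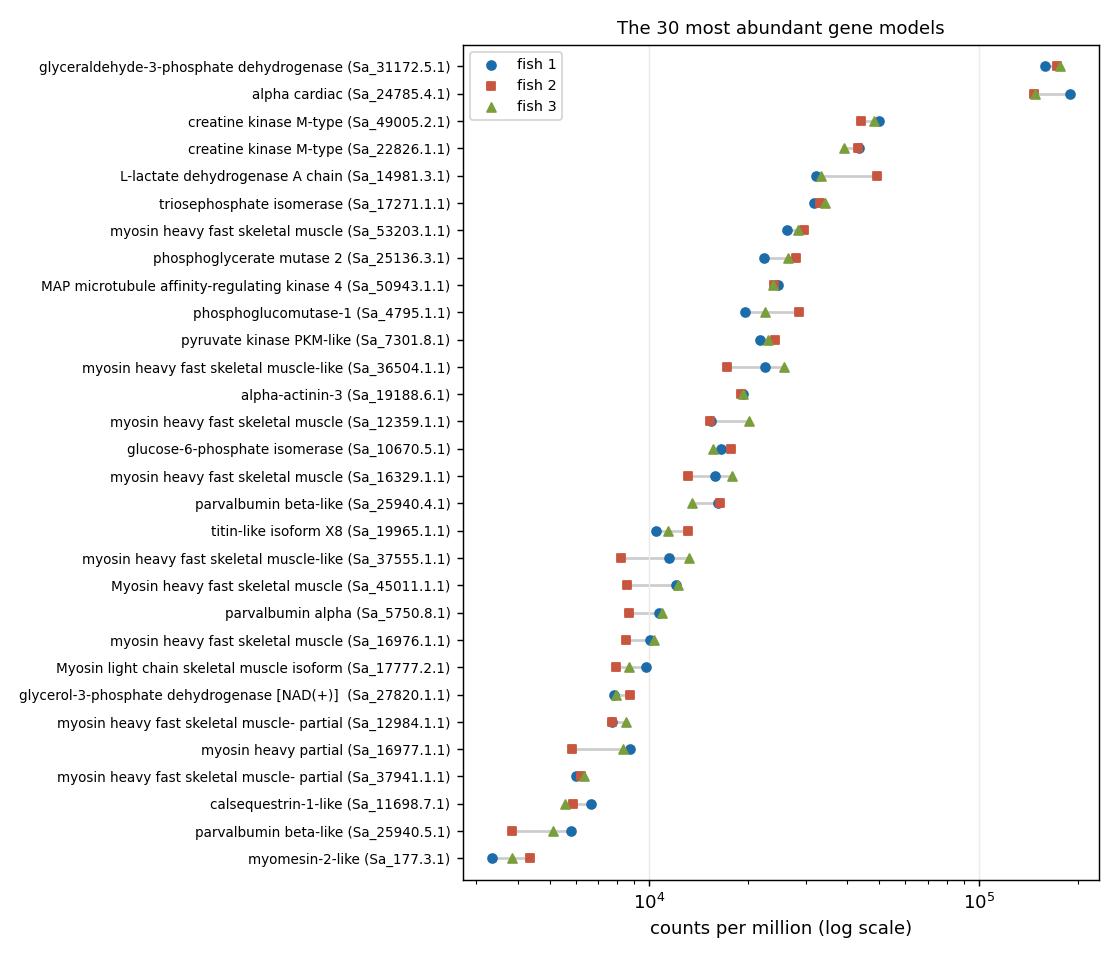
CPM (horizontal axis, log scale) of the 30 gene models with the highest mean, 1 symbol per fish and a grey line from the lowest to the highest fish. The first 2 models lie at 147361 CPM or more in every fish, L-lactate dehydrogenase A stands out by its high value in fish 2 (49021 CPM), and alpha-actinin-3 shows 3 nearly coinciding symbols.

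Each gene model was given 1 functional class from its description. Glycolysis took 32.1% ± 2.28 of the fragments, alpha-actin 16.2% ± 2.36, myosin heavy chain 14.5% ± 1.67, and the phosphocreatine and purine system that buffers ATP 9.27% ± 0.327. Enzymes of anaerobic energy supply (glycolysis, glycogen and phosphocreatine) had sums of 41.5%, 46.5% and 44% in fish 1, 2 and 3, and proteins of the sarcomere to 39.5%, 33.6% and 36.9%. As shares, fish 1 was highest for the sarcomere and lowest for anaerobic enzymes, and fish 2 the reverse. This order of the anaerobic enzymes holds for shares only, since with the normalized counts defined below they summed to 2048770, 2011352 and 2079703 and fish 2 was lowest. With calcium handling added, these groups held 85.3% ± 0.649 of the fragments in 306 counted models, and all remaining classes held 14.7% ± 0.649 in 11217 counted models.

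**Figure D3:**
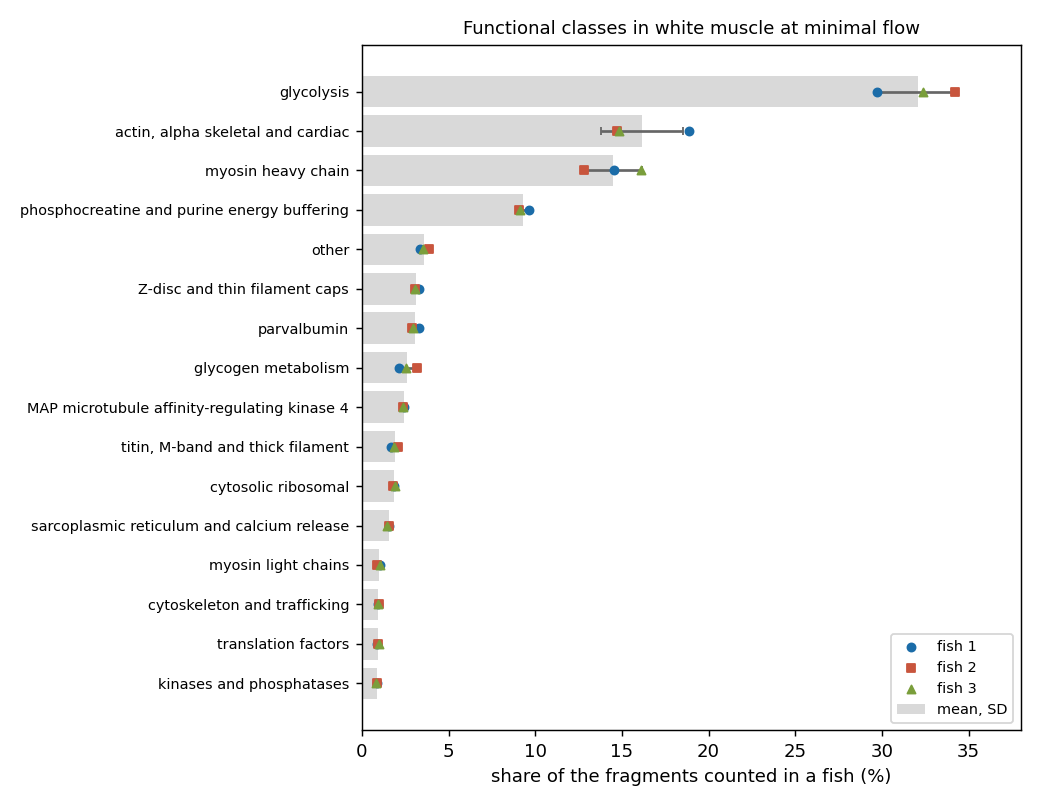
Share of the fragments of each fish (horizontal axis, %) in the 16 classes with the highest mean, as a grey bar (mean) with SD over 3 fish and 1 symbol per fish. Glycolysis reaches 29.7% to 34.2%, actin is highest in fish 1 (18.9%), and myosin heavy chain is lowest in fish 2 (12.8%).

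Along the glycolytic pathway the counted fragments were uneven between steps. Phosphoglucomutase-1 Sa_4795.1.1, which passes glucose units from glycogen into glycolysis, stood at 19629, 28590 and 22504 CPM, and glucose-6-phosphate isomerase at 16506, 17769 and 15705 CPM. In the lower part of the pathway, triosephosphate isomerase was at 31587, 33054 and 34177 CPM, phosphoglycerate mutase 2 at 22399, 27846 and 26439 CPM, and pyruvate kinase Sa_7301.8.1 at 21756, 24208 and 22976 CPM. Phosphoglycerate kinase, which makes the first ATP of the pathway, was at 3615 ± 795 CPM. Each of these steps had 1 model above 100 CPM that carried nearly all of it, apart from the dehydrogenase step, which had 2.

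Other steps had almost no fragments. Hexokinase, which traps blood glucose in the cell, summed to 8.96 ± 0.751 CPM over 17 models, 6-phosphofructokinase, the main control point, to 145 ± 52.5 CPM over 12 models, aldolase, which splits the sugar, to 17.4 ± 2.63 CPM over 6 models and enolase to 25.9 ± 18.5 CPM over 18 models. Most models of hexokinase, phosphofructokinase and enolase shared a stem with others (5, 3 and 5 were alone), whereas 4 of the 6 aldolase models were alone. All 3 counted aldolase models were alone, and the aldolase models in shared stems had no fragments. The limit of shared stems given above therefore applies to aldolase as to the other steps. The pathway cannot run without aldolase and enolase, and these values are not used to rank the steps.

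At the end of the pathway, L-lactate dehydrogenase A Sa_14981.3.1, the form that favours lactate production in muscle, was at 32024, 49021 and 33191 CPM. Fish 2 lay above the other 2 fish, which were close together, and after normalization its excess coefficient of variation (excess CV, defined below) was 0.18. Cytosolic glycerol-3-phosphate dehydrogenase Sa_27820.1.1, which regenerates NAD beside it, was even at 7866, 8765 and 7932 CPM.

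Glycogen metabolism took 2.63% ± 0.518 of the fragments, with 2.17%, 3.2% and 2.53% in fish 1, 2 and 3, the largest relative spread among classes above 1% (coefficient of variation 19.7%). Phosphoglucomutase-1 made up 89.5% of it. Phosphorylase b kinase, which switches glycogen breakdown on when calcium rises, was counted in its gamma catalytic subunit at 827, 1283 and 1188 CPM and in a regulatory subunit of the skeletal isoform at 450, 778 and 625 CPM. Fish 1 was lowest for both. Muscle glycogen phosphorylase itself, listed as glycogen muscle form with 7 models, was at 3.74 ± 2.16 CPM.

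The phosphocreatine system rested on 2 models of creatine kinase M-type, the enzyme that recharges ATP in the sarcomere. Sa_49005.2.1 was at 49848, 44027 and 48085 CPM and Sa_22826.1.1 at 43452, 42991 and 39075 CPM, so the family was split at 53.1% for the first, with both models high in every fish. The other 2 of 4 models had 0 fragments. Adenylosuccinate synthetase 1, an enzyme of the purine cycle that works beside creatine kinase in muscle, was at 1630 ± 97.3 CPM. The mitochondrial form, creatine kinase S, had 2 models at 447, 710 and 793 CPM and at 301, 485 and 627 CPM, both lowest in fish 1.

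Sarcomere proteins were led by the alpha cardiac model, which alone made up 99.99% of its class. The other 3 counted models of that class, with the same opening words, were between 5.17 and 6.61 CPM. Actin paralogues are nearly identical, so reads of several actin genes may have been placed on this model, and its share is uncertain for that reason.

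Myosin heavy chain, the motor of the thick filament, was spread over many models. Of 71 listed, 36 had fragments, 19 were above 100 CPM and 12 above 1000 CPM, and the leading model held only 19.3% of the family. That model, Sa_53203.1.1, was even at 26182, 29508 and 28381 CPM. The next, Sa_36504.1.1, was at 22423, 17263 and 25721 CPM, followed by Sa_12359.1.1 at 15405, 15289 and 20160 CPM and Sa_16329.1.1 at 15877, 13100 and 17900 CPM. All were described as fast skeletal. Summed over the family, fish 3 had 161276 CPM, fish 1 had 145476 and fish 2 had 127980. Fast myosin genes lie in families of near-identical copies, so how the reads were split among these models is uncertain.

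Light chains and regulators of the sarcomere were less abundant. The myosin light chain of skeletal muscle Sa_17777.2.1, which stiffens the myosin neck, was at 9803, 7932 and 8730 CPM. A myosin regulatory light chain of skeletal muscle (Sa_15173.2.1) was at 538, 795 and 1592 CPM, high in fish 3 alone, and regulatory light polypeptide 9 at 29.3 CPM. Titin, the elastic spring from Z-disc to M-band, was at 10498, 13138 and 11425 CPM in 1 model, and myomesin-2, which links thick filaments at the M-band, at 3349, 4351 and 3834 CPM, both highest in fish 2 and lowest in fish 1. Immunoglobulin-like and fibronectin type III domain-containing 1, a large muscle protein of the Z-disc region, was even at 2730 ± 216 CPM in Sa_12654.9.1. Another model of that description, Sa_26795.1.1, was less even at 58.5, 32.2 and 27.9 CPM.

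At the Z-disc, which anchors thin filaments, alpha-actinin-3, the crosslinker found in fast fibres, was at 19348, 19028 and 19280 CPM, the closest agreement on the CPM scale among the 30 most abundant models relative to their mean (SD 168 on 19219 CPM). Myozenin-1, which ties alpha-actinin to the signalling enzyme calcineurin, was at 4254, 3329 and 3262 CPM, and tropomodulin-4, the cap of the thin filament's free end, at 3152, 2532 and 2418 CPM. For both, fish 1 lay above the other 2 fish. Telethonin, the titin cap, was low and uneven, at 230, 1303 and 1066 normalized counts in its leading model.

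Calcium handling took 4.59% ± 0.237 of the fragments. Parvalbumin held 3.04% ± 0.202 in 3 of its 6 models, namely a beta-like form Sa_25940.4.1 at 16192, 16435 and 13514 CPM, the alpha form Sa_5750.8.1 at 10759, 8696 and 10969 CPM, and a second beta-like form Sa_25940.5.1 at 5793, 3836 and 5134 CPM. Fish 3 was lowest for the first and fish 2 for the others. In the sarcoplasmic reticulum, calsequestrin-1, which stores calcium, was at 6672, 5889 and 5550 CPM and the cation channel TRIC-A, which balances charge during release, at 3148, 2568 and 2603 CPM. Release channels were counted as ryanodine receptor 3 at 1940, 2867 and 2420 CPM, while the 18 models of ryanodine receptor 1, of which 0 were alone in their stem, summed to 3.02 ± 0.519 CPM. The voltage sensor that opens them, the alpha-1S calcium channel subunit, was at 790, 794 and 891 CPM, and junctophilin-2, which holds both membranes together, at 744, 822 and 692 CPM.

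MAP microtubule affinity-regulating kinase 4 (MARK4) isoform X4, Sa_50943.1.1, took 2.41% ± 0.0405 of all counted fragments, with 24564, 23956 and 23797 CPM. It was the ninth most abundant model, the evenest class over the 3 fish among those above 1%, and the only one of the 30 most abundant models in a shared stem. MARK4 is a signalling kinase that phosphorylates proteins bound to microtubules, and the class of other kinases and phosphatases, which leaves out the metabolic kinases counted with their pathways, summed to 0.847% ± 0.0251. In the RefSeq annotation of seabream assembly fSpaAur1.1, the genes mark4b and mark4a each follow a muscle creatine kinase gene (ckmb and ckma) as the next protein-coding gene, on chromosomes 2 and 13. The files do not pair their identifiers with that annotation, and the part of this neighbourhood in the count was not tested.

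Oxidative metabolism was a minor share of the counted fragments. The classes of respiratory chain and ATP synthase, citric acid cycle and shuttles, fatty acid uptake and oxidation, and mitochondrial carriers were summed. Together they took 1.33%, 1.51% and 1.53% in fish 1, 2 and 3. The fatty acid class includes an enzyme of fatty acid elongation, which made up 28.9% of it. ATP synthase summed to 1755 ± 128 CPM, complex I, which takes electrons from NADH, to 1111 ± 79.9 CPM, complex IV, which reduces oxygen, to 677 ± 69.6 CPM, complex III to 279 ± 35.8 CPM and complex II to 179 ± 43.7 CPM. In the same order, 13 of 46, 33 of 60, 18 of 35, 5 of 17 and 3 of 13 models were alone in their stem. The limit of shared stems applies here too, and these sums are not used to rank the complexes. The leading models were ATP synthase subunits at 939 and 252 CPM and the 75 kDa subunit of complex I at 159 CPM. Fish 1 was the lowest for complexes II, III and IV and for ATP synthase on the CPM scale, and fish 2 for complex I (1082, 1050 and 1202 CPM). With the normalized counts defined below, the class of respiratory chain and ATP synthase summed to 19013, 18387 and 21455, with fish 2 lowest. On that scale fish 2 was also lowest for the fatty acid class, and fish 1 for the citric acid cycle and carrier classes. The order of the fish thus depends on the scaling.

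The class of citric acid cycle and shuttles was led by models listed as malate mitochondrial (1218 ± 107 CPM) and aspartate mitochondrial (1140 ± 76.5 CPM). Both descriptions lack the word for the enzyme. NADP isocitrate dehydrogenase followed at 1015 ± 80.4 CPM. For fats, very-long-chain hydroxyacyl dehydratase 1, an enzyme of fatty acid elongation, was at 748 ± 83 CPM, the trifunctional enzyme of beta-oxidation at 240 ± 29.8 CPM, hydroxyacyl-coenzyme A dehydrogenase, listed without its last word, at 208 ± 17 CPM, and the heart form of fatty acid-binding protein at 117, 210 and 252 CPM. The voltage-dependent anion channel 2, the main pore of the outer mitochondrial membrane, was at 1232, 1454 and 1340 CPM and held 78.4% of the carrier class, followed by ADP ATP translocase 2 (106 CPM) and an inner membrane import subunit (65 CPM).

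The machinery of protein synthesis took 2.81% ± 0.0702 of the fragments. Cytosolic ribosomal proteins had 35 models above 100 CPM, led by S2 (1620 CPM), S3a (1336 CPM) and SA (1220 CPM), and their class differed little between fish, at 1.86%, 1.81% and 1.92%. Translation factors were led by elongation factor 2, which moves the ribosome along (1986 ± 76.9 CPM), elongation factor 1-gamma (1498 ± 103 CPM) and initiation factor 5A-1 (844 ± 80.3 CPM). Mitochondrial ribosomal proteins took 0.0493%, with their leading models at 42.5, 31.9 and 31.6 CPM.

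Protein folding and removal were smaller. Heat shock cognate 71 kDa, the constitutive chaperone, was at 1199, 1084 and 1303 CPM, heat shock protein 90-alpha 1, which helps myosin to fold, at 390, 416 and 488 CPM, and the gamma subunit of the T-complex chaperonin at 302 ± 20.7 CPM. The ubiquitin, proteasome and autophagy class took 0.467%, 0.651% and 0.528% and was led by calcium-binding and coiled-coil domain-containing 2, an autophagy receptor in mammals (261, 447 and 497 CPM), muscle RING finger 1 (61.0, 643 and 112 CPM) and kelch 31 (228, 280 and 219 CPM). Muscle RING finger 1 is described with the varying models below.

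Membrane, matrix and regulatory classes each took under 1%. Among transport proteins, caveolin-3, which shapes membrane pits of muscle, was at 283 ± 43.5 CPM, the sodium pump alpha-2 at 172 ± 32.9 CPM in its leading model, and excitatory amino acid transporter 2, a glutamate carrier, at 161 ± 18 CPM. The matrix was led by collagen I alpha-1 (1037, 1743 and 1225 CPM), dystroglycan, which anchors the fibre to the matrix (222, 291 and 221 CPM), and collagen IV alpha-1 of basement membranes (134, 261 and 138 CPM). Fish 2 was highest for all 3 matrix models.

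Transcription and chromatin took 0.53% ± 0.0604, with nuclear factor interleukin-3-regulated, a repressor of the circadian clock (127, 435 and 131 CPM), and high mobility group B1 (213 ± 21.6 CPM) among its most abundant models. The class of other kinases and phosphatases was led by a model listed as phosphatase mitochondrial-like (2165 ± 261 CPM), nicotinamide riboside kinase 2, a muscle enzyme of NAD synthesis (2623, 1354 and 1626 CPM), and protein phosphatase 1-beta (378, 386 and 366 CPM). Cytoskeleton and trafficking were led by ADP-ribosylation factor 6-interacting 1 (1318 ± 234 CPM), reticulon-2 (936 ± 61.7 CPM) and reticulon-4 (823 ± 22.4 CPM), membrane-shaping proteins of the endoplasmic reticulum. Splicing and RNA binding were led by vigilin (296 CPM), serine arginine repetitive matrix 1 (137 CPM) and the kinase CLK2 (127 CPM), and the immune and plasma class by cystatin precursor, a protease inhibitor (299 ± 2.55 CPM), CD81 antigen (122 CPM) and beta-2-microglobulin (106 CPM).

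Models that fell in no class held 3.58% ± 0.274, led by cyclin-G1 (1468 CPM), adenosylhomocysteinase, which recycles the product of methylation (632 CPM), and Fanconi anemia group E of DNA repair (514 CPM). Models with no description or an uncharacterized one held 0.234%, the leading ones at 459, 242 and 204 CPM. In troponin and tropomyosin, at 0.00869% of the fragments, the leading models were a troponin of skeletal muscle (82.8, 16.6 and 66.3 CPM), a fast skeletal troponin (26.3, 6.3 and 6.08 CPM) and tropomyosin alpha-4 (5.44 CPM).

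The marker sums fitted white muscle, though not every single marker did. The fast muscle list summed to 285862 ± 17652 CPM over 51 counted models, and the slow and red muscle list to 22.8, 16.6 and 20.5 CPM over 16 counted models of 62. SERCA1 of fast muscle was at 0.286 CPM, below SERCA2 of the slow list at 14.9 CPM over its models. A fast skeletal troponin was at only 12.9 CPM. The limit of shared stems holds for the fast list too, since 57 of its 96 models were alone. Myoglobin, with 1 model that was alone in its stem, had 0 fragments in all 3 fish, which allows up to 0.213 CPM over the fish together. The highest slow markers were SERCA2 (13.7 CPM), the slow skeletal and cardiac troponin (1.46 CPM) and myosin light chain 3 (1.29 CPM). Slow myosin and troponin models are subject to the limit of shared stems, since 26 of the 62 were alone.

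Markers of other cells were low, with some that differed between fish. Fibroblast and tendon markers summed to 1190, 2053 and 1374 CPM, most of it collagen I alpha-1, followed by a scleraxis-like tendon regulator (153 CPM) and lumican, a matrix proteoglycan (37.9 CPM). Skin and epithelium markers summed to 343, 747 and 434 CPM, led by keratin 8-like (218 CPM), keratin 13-like (192 CPM) and keratin 18-like (58.3 CPM). Fish 2 was highest for both lists, and fish 1 lowest. Nerve and glia markers were even at 175, 157 and 170 CPM, led by myelin basic (151 CPM), myelin P0 (7.6 CPM) and synaptotagmin-1 (6.43 CPM).

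Satellite cell and myoblast markers summed to 175, 96.0 and 125 CPM, led by 2 models of MyoD1 (101 and 21.2 CPM) and by myogenic factor 6 (6.37 CPM), while myogenin, alone in its stem, had 0 fragments. Leukocyte markers summed to 55.2, 101 and 63.4 CPM, led by 2 models of the class II invariant chain (49.9 and 8.21 CPM) and coronin-1A (6.82 CPM). Red blood cell markers summed to 34.4, 28.7 and 49.7 CPM, nearly all from 1 hemoglobin alpha-A model (36.5 CPM), then band 3 (1.03 CPM) and erythroid aminolevulinate synthase (0.147 CPM). Endothelial markers summed to 21.2, 37.3 and 18.8 CPM (cadherin-5 17.1 CPM, von Willebrand factor 7.84 CPM, platelet endothelial cell adhesion molecule 0.656 CPM), and cartilage and bone markers to 18.3, 19.6 and 24.9 CPM (collagen X alpha-1 15.3 CPM, 2 models of collagen II alpha-1 4.84 and 0.616 CPM). Liver and plasma markers summed to 4.36, 7.81 and 6.27 CPM, all 3 leading models being alpha-2-macroglobulin. The 22 adipocyte markers, 2 of them alone in their stem, had 0 fragments.

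Variation among the 3 fish was measured on counts normalized by the trimmed mean of M-values (TMM). Excess CV is the coefficient of variation over the 3 fish after the variance expected from counting has been taken away, and a model was called varying at an excess CV of 0.5 or more. Among 1508 models with a mean normalized count of 50 or more, which held 98.4% of the fragments, the median excess CV was 0.158, and 499 models (33.1%) were below 0.1, 205 of them at 0. Varying were 123 models, 8.16% of those tested, and they held only 0.769% of the fragments. Of the 161 models with a mean of 1000 or more, 6 varied. The models just inside and just outside that threshold had values of 0.508 and 0.499.

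Most of the varying models were high in fish 2. That fish was the highest in 79 of the 123 (64.2%), against 472 of all 1508 tested (31.3%), while fish 1 was highest in 30 and fish 3 in 14. The minimum was a mean over all 3 fish, so a model could reach it through 1 fish alone (the mean of the other 2 fish below 50). That was so for 154 of the 1508, fish 2 being the highest in 70 of them. The 123 were not split in this way, so the tally of 79 may depend in part on that minimum. In 60 of the 123, fish 2 was highest and fish 1 lowest. Among the 123, fish 1 was lowest in 64, fish 2 in 33 and fish 3 in 26. Fish 2 stood at 2-fold or more of both other fish in 62 models, fish 1 in 23 and fish 3 in 7. On the low side, both other fish stood at 2-fold or more of fish 1 in 31 models, of fish 2 in 28 and of fish 3 in 12. Between fish 1 and 2, 193 of the 1508 models differed 2-fold or more, between fish 2 and 3 128 and between fish 1 and 3 84, with median differences of 1.28-fold, 1.23-fold and 1.2-fold. Scaling by total counts instead raises all models of fish 2 by 0.11 on the log2 scale. With that scaling 145 of 1514 models varied, a changed set, and fish 2 was highest in 71.7% of them. It was highest in 44.8% of the 1508 models tested above. Without fish 2, 67 of 1541 models varied.

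**Figure D4:**
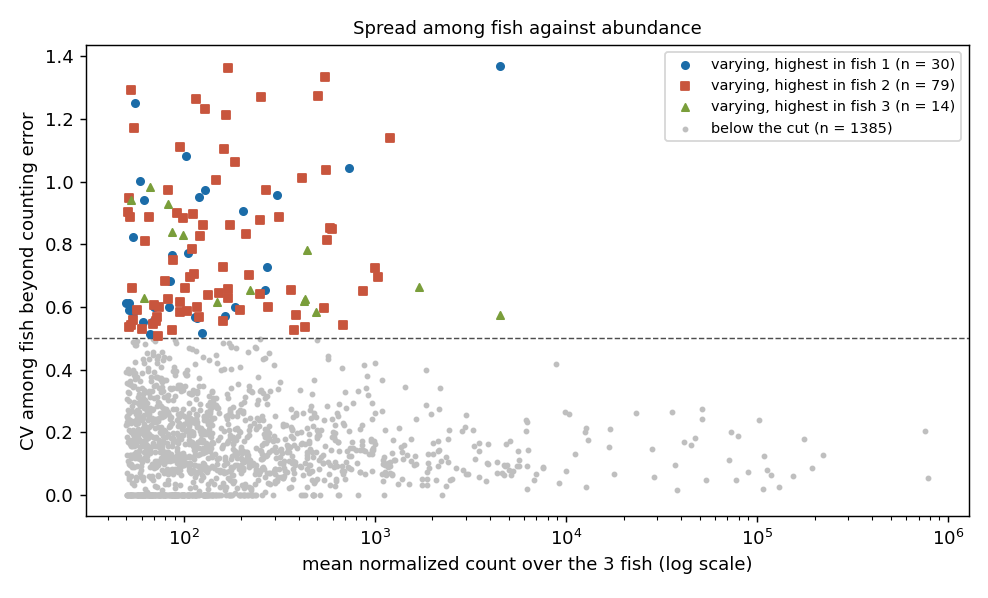
Excess CV among the 3 fish (vertical axis) against the mean normalized count (horizontal axis, log scale) for 1508 gene models. Grey points are the models below the dashed line at 0.5, and coloured symbols are the varying models by the fish with the highest value, 79 for fish 2, 30 for fish 1 and 14 for fish 3, with 6 of them at a mean of 1000 or more.

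The 25 models with the highest excess CV (0.972 or more, the next at 0.958) are described by what their products do, and fish 2 was highest in 18 of them. Some of the 25 reached the minimum only through their highest fish. For fish 2 these were the models of piccolo, FLO11, arrestin domain-containing 2, Krueppel-like factor 13 and coactivator 1-alpha. The nuclear factor erythroid 2-related factor and the lymphoma translocation models did so too. For fish 1 they were MyoD1 Sa_16698.3.1 and the neoverrucotoxin and maltase models, and for fish 3 bestrophin-3. The tally of 18 is not independent of that minimum. Without fish 2, 11 of the 25 still had an excess CV of 0.5 or more. Among the 25, models of protein breakdown are described first, and they were picked by their spread. In the whole class of ubiquitin, proteasome and autophagy, 4 of 109 tested models varied, beside 8.16% of all tested models. The median excess CV of that class was 0.139, beside 0.158. Fish 2 was highest in 30 of the 109 and lowest in 40, beside 472 and 667 of all 1508. Muscle RING finger 1 (MuRF1), the ubiquitin ligase that marks sarcomere proteins for the proteasome, had 301, 2783 and 529 normalized counts in fish 1, 2 and 3, a 9.25-fold range and an excess CV of 1.14. F-box only 30, the target-binding part of a ubiquitin ligase that acts in wasting muscle of mice, had 32.7, 400 and 67.3. Nuclear factor erythroid 2-related factor 1-like, which in mammals turns on proteasome genes, had 11.3, 312 and 65.5. That factor was classed with transcription and chromatin, where 17 of 88 tested models varied. In muscle RING finger 1, F-box only 30 and this factor, fish 2 stood far above fish 3, and fish 1 was lowest.

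Regulators that respond to glucocorticoids, fasting or energy shortage in mammals formed a second group. Krueppel-like factor 9 had 51.2, 624 and 83.4 normalized counts and Krueppel-like factor 13 had 42, 177 and 30.5. DNA damage-inducible transcript 4, an inhibitor of the growth kinase mTORC1, had 57.3, 410 and 85.2 in Sa_21557.6.1. Fish 2 was highest in each, and the other 2 fish lay closer to each other than to it.

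Also high in fish 2 were regulators of fuel use, along with an alpha-arrestin and a repressor of the clock. Peroxisome proliferator-activated receptor gamma coactivator 1-alpha, which drives mitochondrial genes, had 18.4, 217 and 51.1 normalized counts. Mid1-interacting 1, a regulator of fat synthesis in mammals, had 110, 1246 and 156, and the alpha-arrestin listed as arrestin domain-containing 2 had 10.2, 132 and 16.1. A circadian-associated transcriptional repressor, part of the clock, had 40.9, 367 and 77.1. Each was 8.97-fold to 12.9-fold higher in fish 2 than in fish 1.

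Amino acid uptake and structure completed the models that were high in fish 2. The 4F2 heavy chain, which carries amino acid transporters to the cell surface, was high in both of its models, with 149, 1219 and 303 normalized counts in Sa_1482.1.1 and 76.7, 566 and 161 in Sa_3234.1.3. Kelch 38 had the widest range of the 18, with 46, 1385 and 211 (30.1-fold). Filamin-C, which crosslinks actin at the Z-disc, had 164, 903 and 183, so that only fish 2 stood apart. Piccolo-like, named after a scaffold of nerve endings, had 25.6, 437 and 46.6. The remaining 3 were the paracaspase-like mucosa-associated lymphoid tissue lymphoma translocation 1 (14.3, 129 and 20.6), dentin sialophospho-like (31.7, 316 and 96) and a model named after the yeast surface protein FLO11 (37.9, 284 and 24.2).

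Fish 1 was highest in 6 of the 25. A fast myosin heavy chain, Sa_5883.2.1, had the highest excess CV of all (1.37), with 11588, 575 and 1321 normalized counts, and a second, Sa_24470.1.1, had 1601, 199 and 387. MyoD1 Sa_16698.3.1, a master regulator of muscle identity, had 227, 8.72 and 73.5, whereas the other MyoD1 model, Sa_31786.1.1, had 584, 373 and 466 and an excess CV of 0.219. Both MyoD1 models were highest in fish 1 and lowest in fish 2. Syntaxin-binding 2, a vesicle docking protein, had 267, 21.8 and 96.9. A maltase-like model had 127, 32.7 and 17, and a model named after the stonefish toxin neoverrucotoxin had 131, 30 and 0 fragments, too few for a fold.

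Fish 3 was highest in 1 of the 25, bestrophin-3, a chloride channel, with 23.5, 33.8 and 143 normalized counts. The myosin models that stood out in fish 1 were minor parts of their family. Sa_5883.2.1 took 2350 CPM in fish 1 against 133 and 280 CPM in the others, while the family took 127980 CPM or more in each.

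**Figure D5:**
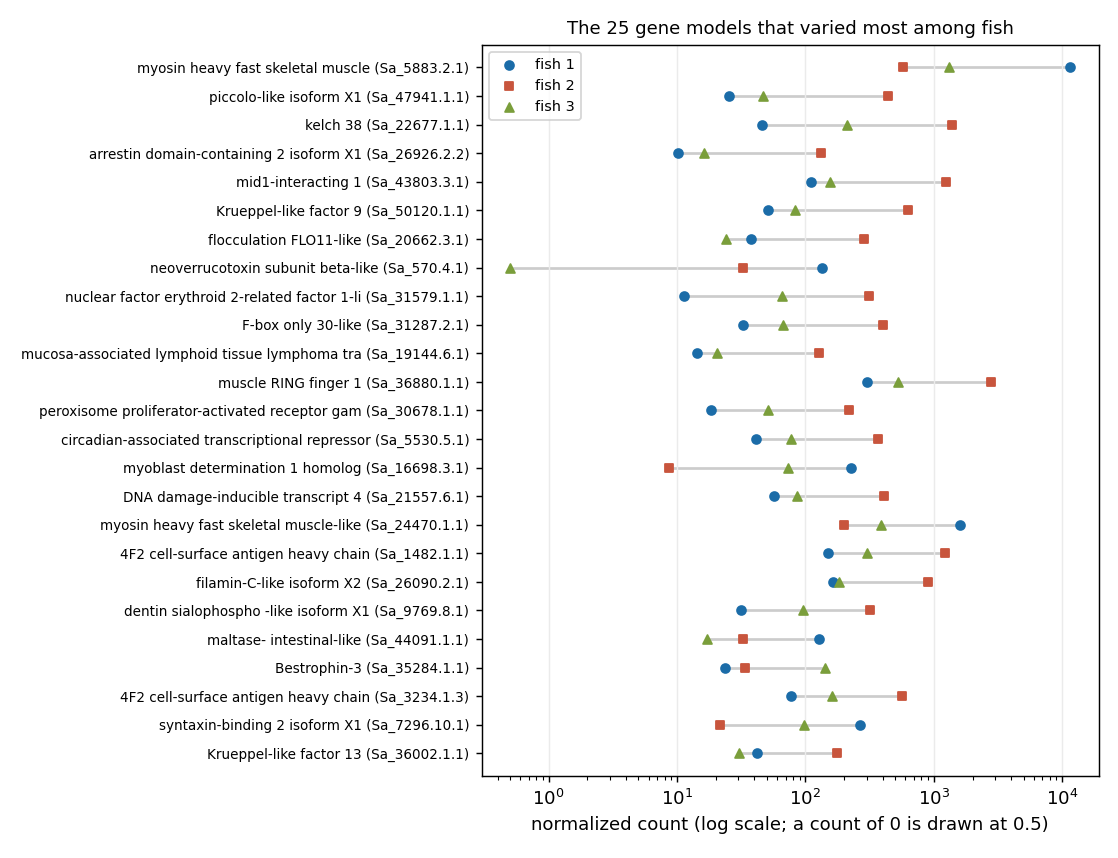
Normalized counts (horizontal axis, log scale) of the 25 gene models with the highest excess CV, 1 symbol per fish, with a grey line from the lowest to the highest fish and a count of 0 drawn at 0.5. Fish 2 is the rightmost symbol in 18 of the 25, fish 1 in 6 and fish 3 in 1.

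Wider gene families were then listed from descriptions, after the spread had been seen, and the values of their members describe these fish only. Few members reached the mean normalized count of 50, some of them only through 1 fish (the mean of the other 2 fish was below 50), so how many of those that reached it varied is not given as a result. Among the FoxO factors, muscle RING finger proteins and F-box only proteins, 22 of 118 models had a fragment and 5 reached the minimum, 1 of these (FoxO1-A) only through fish 2. FoxO3, a factor that turns on genes of protein breakdown, had 165, 639 and 143 normalized counts, FoxO1-A had 38.9, 189 and 49.3 and F-box only 33 had 62.4, 291 and 128. Of the 17 counted models below the minimum, 7 were highest in fish 1, 5 in fish 2 and 5 in fish 3. Among these, a second FoxO1 model (Sa_24145.1.1) had 19.4, 4.36 and 8.97 and F-box only 46 had 38.9, 28.3 and 32.3, both highest in fish 1.

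Of 86 models of stress-related growth regulators, 29 had a fragment and 10 reached the minimum, 2 of these (Krueppel-like factor 13 and arrestin domain-containing 2) only through fish 2. Thioredoxin-interacting protein, which restrains glucose uptake, had 277, 1735 and 1006 normalized counts and a second DNA damage-inducible transcript 4 model (Sa_9099.3.1) had 104, 301 and 107. By contrast 4E-binding 2, a brake on translation, was even with 719, 618 and 692, while its relative 4E-binding 3 had 248, 690 and 351.

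Of 93 models for the switch between glucose and fat, 31 had a fragment and 12 reached the minimum, 1 of these (the coactivator 1-alpha above) only through fish 2. Pyruvate dehydrogenase kinase, which closes the entry of glucose carbon into mitochondria, had 68.6, 1056 and 616 normalized counts in Sa_1161.3.1 and 24.6, 326 and 172 in Sa_1161.4.1. Carnitine palmitoyltransferase of muscle, the gate for fatty acids, had 270, 983 and 778, and the glucose transporter member 1-like had 230, 1077 and 366. For the kinase and the palmitoyltransferase fish 1 lay far below both other fish. Angiopoietin-related 4, a blocker of fat uptake, went another way, with 247, 238 and 840.

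Clock genes differed in which fish was highest. Of 123 models 29 had a fragment and 5 reached the minimum. Class E basic helix-loop-helix 40, a clock repressor, had 639, 206 and 76.2 normalized counts and its second model had 198, 76.3 and 42.2, so fish 1 was highest and fish 3 lowest in both. Nuclear factor interleukin-3-regulated had 628, 1882 and 617, high in fish 2 only. Clock transcripts follow the time of day, and the sampling hour of each fish is not given in the sources used here.

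Muscle regulators had 82 models, of which 23 had a fragment and 11 reached the minimum, with a median excess CV of 0.159 beside 0.158 over all tested models. MyoD1 Sa_16698.3.1, described above, reached the minimum only through fish 1. Vestigial 2, a cofactor of muscle genes, had 227, 640 and 226 normalized counts. Myostatin, the brake on muscle growth, had 341, 367 and 382 (excess CV 0.0239), and myocyte enhancer factor 2A had 609, 665 and 595. Among amino acid transporters, 9 of 179 models reached the minimum, both 4F2 models and a taurine transporter (162, 466 and 200) among them. Both excitatory amino acid transporters were lowest in fish 2, with an excess CV of 0.168 and 0.0512.

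Of 392 models of collagens and matrix glycoproteins, 113 had a fragment and 22 reached the minimum, 3 of these only through fish 2. Lumican had 89.0, 294 and 130 normalized counts, dermatopontin, which binds collagen fibrils, had 228, 606 and 303, and collagen I alpha-1 had 5115, 7541 and 5785. Of the 22, fish 2 was highest in 16, beside 31.3% of all tested models, and fish 3 in 6. The 16 include the 3 that reached the minimum only through fish 2. Among the 19 that reached it also without their highest fish, fish 2 was highest in 13, beside 402 of 1354 such models. With scaling by total counts fish 2 was highest in 17 of the 22, beside 44.8% of all tested models. After TMM normalization fish 2 was lowest in 4 of the 22. Collagen VIII alpha-1 had 120, 112 and 144 and collagen X alpha-1 had 75.7, 54.5 and 85.2, both lowest in fish 2. A collagen XI alpha-1 model (Sa_13187.3.1) had 71.6, 121 and 184. The 3 most abundant keratin models were also highest in fish 2, keratin 8-like Sa_11502.3.1 having 648, 1462 and 874, keratin 13-like 568, 1277 and 778 and keratin 18-like 209, 364 and 229. Another keratin 8-like model, Sa_16613.1.1, went the other way and varied, with 91.1, 31.6 and 39.5, highest in fish 1. In whole tissue, more matrix or epithelial cells in a sample and more RNA per such cell cannot be told apart. The part of these markers in the values of the ligases and stress genes of fish 2 was not tested.

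Of 168 models of cytosolic ribosomal proteins 37 reached the minimum. Their median excess CV was 0.0916, beside 0.158 over all tested models. After TMM normalization fish 2 was lowest in 36 of the 37, beside 667 of all 1508 tested models. Its median was 0.853 of the other fish, beside 0.94 over all tested models. With scaling by total counts fish 2 was lowest in 20 of 37, beside 430 of the 1508. Its median was then 0.952, beside 1.05 over all tested models.

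The evenest models among those with a mean normalized count of 1000 or more came from metabolism, translation and the sarcomere. Ribosomal S25 led with 2289, 2229 and 2240 normalized counts (CV 0.0141), followed by glycerol-3-phosphate dehydrogenase (CV 0.0177) and pyruvate kinase (CV 0.0183). Makorin-1, a ubiquitin ligase, had 1135, 1108 and 1087, and voltage-dependent anion channel 2 had 6077, 6289 and 6332. The leading fast myosin Sa_53203.1.1 had a CV of 0.0258, so the most abundant myosin model was even while Sa_5883.2.1 ranged 20.1-fold. Immunoglobulin-like and fibronectin type III domain-containing 1 (Sa_12654.9.1), ribosomal L35, elongation factor 2 and a ribosomal model with a partial description completed the 10, at CVs of 0.0263 to 0.0383.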

How the data were processed

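Total RNA of white muscle was made into stranded mRNA libraries, 1 per fish. In the study's methods and processing notes, paired reads were aligned to a seabream genome (TopHat2 2.0.13), secondary alignments were discarded (SAMtools 1.2), and HTSeq 0.6.1p1 gave fragments per predicted gene. The genome is identified in the methods by a link to NCBI, with no build name. How strand was set and how reads over several models were treated is not given in the sources used here. The authors deposited raw counts, not normalized, in a table that also holds their DESeq means, fold changes and p-values, which were not used. The counts of the 3 fish were the same in the 2 tables that hold them (0 values differed), and 2 columns without a label were not used.

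CPM is the count over the total count of the fish, times 1000000. Normalized counts were divided by library size times TMM factor (edgeR 4.0.16 in R 4.3.3; factors 0.944, 1.08 and 0.985), scaled to a geometric mean of 1 over fish. As a second description of the spread, edgeR's common biological coefficient of variation over the 1508 models was 0.307. Python 3.11.15 did the rest. The excess CV was also computed on simulated counts, where most models had a lower biological coefficient of variation than the common value above. That run checks the calculation and gives no rate of false calls for these fish. With 3 fish and 1 group no test between groups was made. The totals give a precision limited by counting error for models near 1 CPM, and a 0 allows up to 3 fragments.

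Classes, marker lists and gene lists are text patterns on the descriptions, some of which lack words, and 1327 of 61849 had no description. The 8 gene lists were drawn up after the spread among fish had been seen, and all members and lists were chosen with earlier results of these data known. Named models were the 30 with the highest mean CPM, the top 3 of each class and marker list, members of their families, the 25 with the highest excess CV at a mean of 50 or more and the 10 with the lowest CV at a mean of 1000 or more. Of these, 1 model is not reported here. Members of the gene lists, and other models named beside a pathway step, were chosen after their values were seen. Gene names of neighbouring genes came from RefSeq. Alternatives were leaving out each fish, other totals, class order, thresholds and scalings.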

Additional observations from a re-analysis of the deposited data

How the results depend on the processing

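No paired analysis was possible because 1 group was described and no groups were compared. Without the 2 most abundant gene models in the total, the 10 most abundant remaining took 45.8%, 12 models held 50%, and the shares became 22.7% for glycolysis, 0.00256% for actin, 21.7% for myosin heavy chain, 13.9% for phosphocreatine and purines, 4.7% for the Z-disc, 4.56% for parvalbumin, 3.93% for glycogen and 3.6% for MARK4. With only models alone in their stem, an alternative chosen after seeing the data, the top 10 took 61.0% and MARK4 fell to 1.36e-05%. With the last matching pattern deciding the class, glycolysis took 29.3%, myosin heavy chain 0%, phosphocreatine and purines 0.243%, the Z-disc 1.08% and MARK4 0%, since broad later patterns then catch these names. At 5 CPM or more in all fish stood 1997 models. With a mean of 20 or more 259 of 2693 models varied (median excess CV 0.169), with 200 or more 38 of 533 (0.138), and with no minimum 2904 of 11523 (0.124). Leaving out each fish in turn gave 67 to 171 varying models and a median excess CV of 0.0971 to 0.149, in both cases lowest without fish 2, and moved the top 10 share only between 59.1% and 60%. DESeq2 size factors left 25 of the 25 named models at 0.5 or more, as did total counts, and leaving out fish 1, 2 or 3 left 23, 11 and 24. Shares per protein length were not run, as no lengths were used here. Counts below about 3 fragments, near-identical copies and shared stems limit what a low value shows.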
